A study of Rattus norvegicus with 18 samples.

Results

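The authors' deposited table of ZSF1 obese against ZSF1 lean rats holds 5700 genes that differed between the left ventricles of these 2 groups, and all of its rows are described here. They are 5700 of the 6588 genes that appear in at least 1 of the study's 3 deposited tables. Of the listed genes, 3045 (53.4%) were higher and 2655 (46.6%) were lower in the obese hearts. The study sequenced polyadenylated RNA of the left ventricle from 6 male rats per group. The ZSF1 lean rats are the hypertensive group of the design, and the ZSF1 obese rats are the group with hypertension and metabolic syndrome that models HFpEF, heart failure in which the ejection fraction is preserved. WKY rats, the wildtype controls, are in neither of these 2 groups, and whether they entered the authors' fit is not stated in the sources used here. As background, ZSF1 rats are hybrids of a diabetic fatty strain and a strain prone to hypertensive heart failure, and an animal becomes obese when it inherits a defective leptin receptor copy from each parent. The sources used here give no age, diet or drug treatment, and the obese and lean rats share the hybrid hypertensive background.

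In HFpEF the ventricle ejects a normal share of its blood but fills against a stiff wall, often together with obesity, diabetes and hypertension. The working ventricle draws most of its ATP from mitochondrial oxidation of fatty acids. Its mitochondria depend on proteins from both the nuclear and the mitochondrial genome, which have to be made, imported and assembled together. Cardiomyocytes hold most of the tissue's mass, while fibroblasts, endothelial cells, mural cells and leukocytes make up many of its cells.

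Each fold below is the obese level divided by the lean level and each adjusted p is the false discovery rate, both as they stand in the authors' deposited table. Values per rat, mean levels and standard errors were not used here. The spread between rats is therefore not shown, and the adjusted p does not measure it. Its genes all have folds of 2 or more, or of 0.5 or less, and adjusted p-values below 0.05. A gene that is not listed may have missed either limit or not have been tested, and is therefore not called unchanged. Just inside the fold limit stood Slc7a6 and Il34, both at 2.0, and Atp11b and Ankrd46, both at 0.5. The median fold of the higher genes was 3.01 (quartiles 2.44 and 4.08) and that of the lower genes was 0.314 (quartiles 0.21 and 0.412). The median adjusted p was 2.95e-12 among the higher and 5.97e-28 among the lower genes, and all 17 genes whose adjusted p was deposited as 0 were lower.

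**Figure D1:**
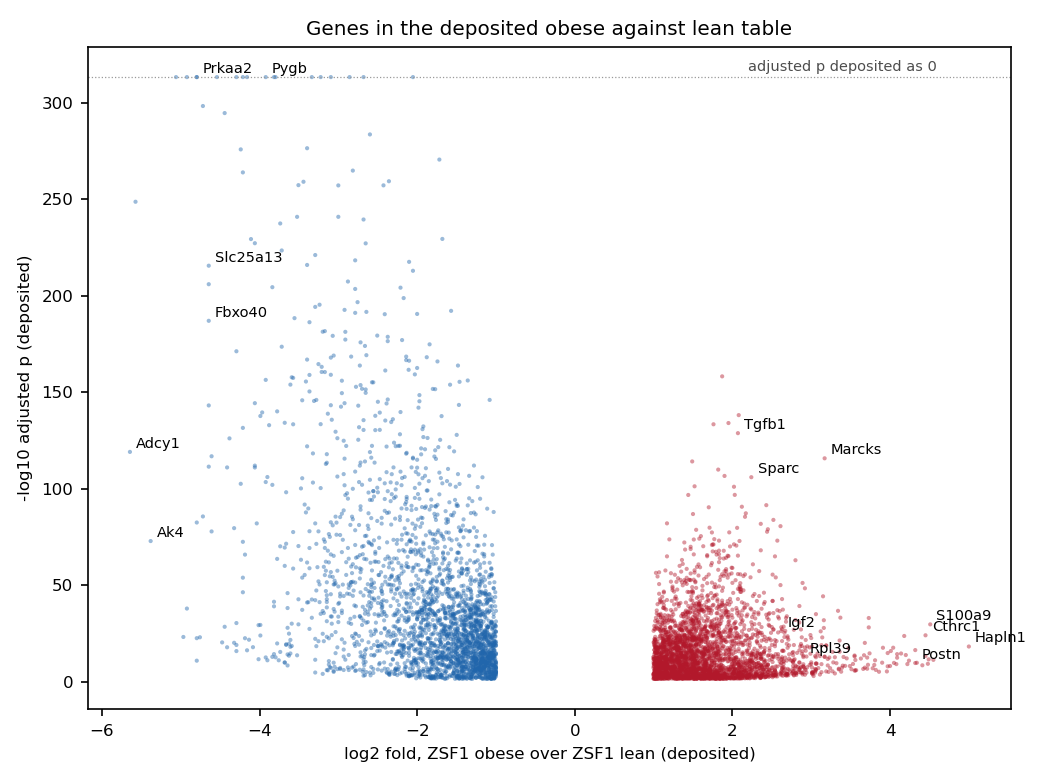
Deposited fold (log2 scale, x axis) and deposited adjusted p (−log10 scale, y axis) of the 5700 genes listed for obese against lean hearts; each point is 1 gene, red if higher and blue if lower in obese hearts, and the dotted line holds the 17 genes whose adjusted p was deposited as 0. The lower genes reach smaller adjusted p-values, while the higher genes extend to the largest fold, 32.0 for Hapln1.

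At the ends of the authors' deposited table stood genes of very different kinds. Hapln1, which links hyaluronan to proteoglycans, had the highest fold, 32.0 (adjusted p 7.16e-19). Agr2 (fold 22.3), a protein disulfide isomerase of secretory epithelia, Scgb3a1 (fold 18.4), a secretoglobin, and Slc18a1 (fold 17.0), a vesicular monoamine transporter, were also among the 20 largest rises. Pax8, a paired-box transcription factor, stood at 16.9, and Ascl2, a basic helix-loop-helix transcription factor, at 16.6. At the other end, Adcy1, an adenylate cyclase stimulated by calcium and calmodulin, had the lowest fold, 0.02 (adjusted p 8.28e-120). Fads6, a member of the fatty acid desaturase family, stood at 0.021 and the mitochondrial adenylate kinase Ak4 at 0.024. Napepld, which makes N-acylethanolamines, stood at 0.038, and Prkaa2, the catalytic alpha2 subunit of AMP-activated protein kinase, at 0.036 with an adjusted p deposited as 0.

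Words of the description column were unevenly shared between the 2 directions. Of 111 words that occurred in the descriptions of at least 25 listed genes, "mitochondrial" had the lowest share of higher genes, 6 of 108 (5.56%). It was followed by "synthetase" with 3 of 36 and "assembly" with 3 of 28. The words "heat" and "shock" each had 4 of 32, "dehydrogenase" had 20 of 98 and "ubiquitin" 11 of 47. At the other end, "chemokine" had 24 of 26 (92.3%), "lectin" 23 of 25 and "tnf" 28 of 31. The word "receptor" had 246 of 334 higher (73.7%), whereas "voltage-gated", found in the names of ion channels, had 8 of 28. These shares are to be read against the 53.4% of all listed genes that were higher.

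**Figure D2:**
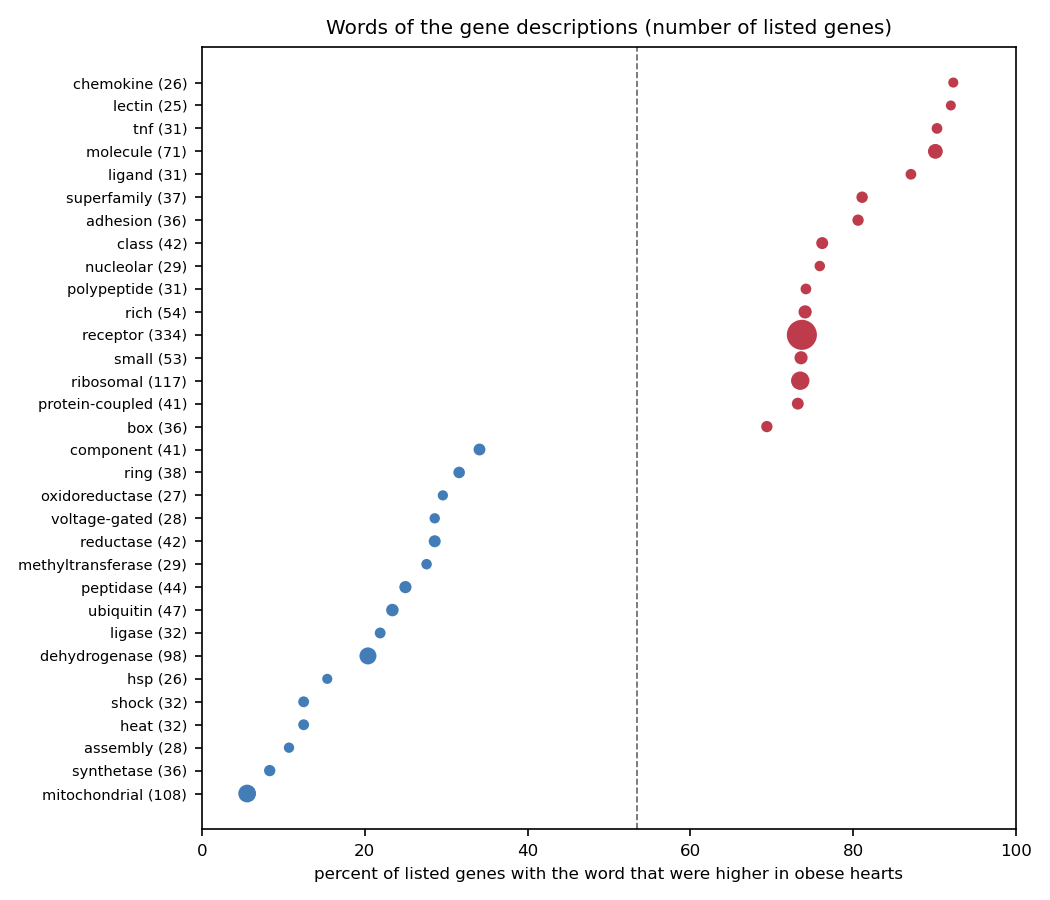
Percent of listed genes that were higher in obese hearts (x axis) for the 16 words with the lowest and the 16 with the highest share, from words found in at least 25 gene descriptions and without general words such as family or member; the number of genes is in brackets and sets the size of the point, and the dashed line marks the 53.4% of all listed genes. Words of mitochondria, protein folding and ubiquitin stand on the left, words of immune ligands, adhesion and receptors on the right.

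The bulk tissue mixes cell types, and marker genes of different types moved in opposite directions. Of 14 cardiomyocyte markers in the authors' deposited table, 8 were listed and all 8 were lower, from Myh6 at 0.187 to Myl3 at 0.369, with Ckm, Actc1, Tnnc1, Actn2, Mb and Ryr2 between them. Myh7, Myl2, Tnnt2, Tnni3, Ttn and Pln were not listed. All listed markers were higher for fibroblasts (6 of 12, median fold 3.69), endothelium (9 of 12, 3.51) and macrophages and monocytes (11 of 13, 3.51). The same held for neutrophils (7 of 12, 10.3), T and natural killer cells (6 of 12, 3.12) and B cells (5 of 7, 4.11). It also held for Schwann cells and nerve (4 of 10, 2.39) and mesothelium and epithelium (3 of 10, 3.89). For comparison, 23.1% of all protein-coding genes were listed. Markers not listed included Col1a2, Dcn and Pdgfra of fibroblasts, Pecam1 of endothelium, and Cxcr2, Elane and Mpo of neutrophils. Also not listed were Cd3e, Cd2 and Cd4 of T cells, Sox10 and Mbp of Schwann cells, and Msln, Upk3b and Krt18 of mesothelium and epithelium. Smooth muscle and pericyte markers were mixed, with Cnn1 (2.23), Myh11 (2.93), Tagln (3.2) and Acta2 (3.51) higher and Des (0.328) and Rgs5 (0.486) lower. Of the erythroid markers, Hbb-b1 (3.94), Alas2 (4.2), Ahsp (6.54) and Epb42 (6.68) were higher and Slc4a1 (0.374) was lower. Among atrial markers, Myl4 (6.82), Myl7 (3.34) and Gja5 (2.41) were higher, Sln (0.285) and Dkk3 (0.438) were lower, and Nppa and Bmp10 were among those not listed. Of 8 adipocyte markers, Fabp4 (4.96) and Cfd (4.41) were higher and Cidea (0.243) was lower, and Adipoq, Plin1, Lep, Cidec and Retn were not listed. Of 8 mast cell markers, Cma1 (2.71) was higher and Tpsb2 (0.5) stood at the limit of 0.5. In bulk tissue, fewer cells of a type and less RNA per cell cannot be told apart, and the part of cell composition in the results below was not tested.

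**Figure D3:**
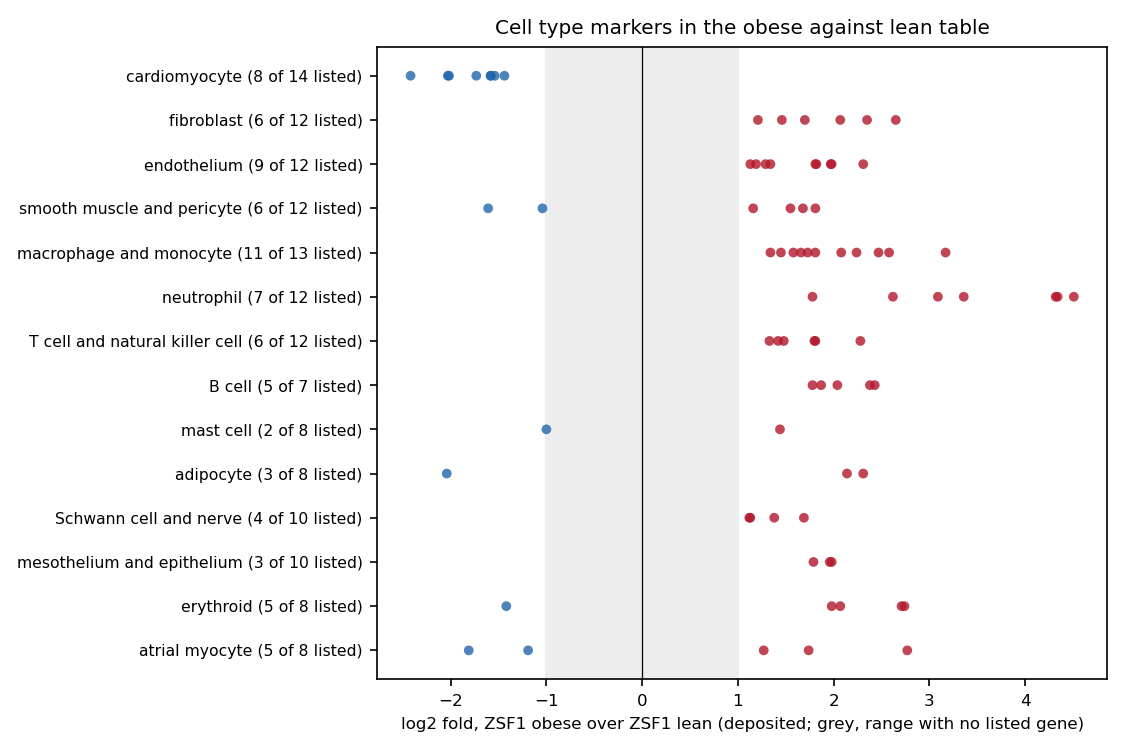
Deposited fold of obese over lean (log2 scale, x axis) for the listed markers of 14 cell types (rows, with the number listed of the markers chosen); each point is 1 gene, red if higher and blue if lower in obese hearts, and no listed gene can lie in the grey band. All 8 listed cardiomyocyte markers lie on the left and all 7 listed neutrophil markers on the right.

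To describe gene families, 110 families were defined by symbol and set against the protein-coding genes of the rat RefSeq annotation (assembly GRCr8, used for names only). Of 23154 protein-coding genes there, 12.2% were listed as higher and 10.9% as lower, 23.1% in all. The families took in 1948 of the listed genes (34.2%). Among the 106 families with at least 5 listed members, 9 had lower members only, 8 had higher members only, and 89 had both.

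**Figure D4:**
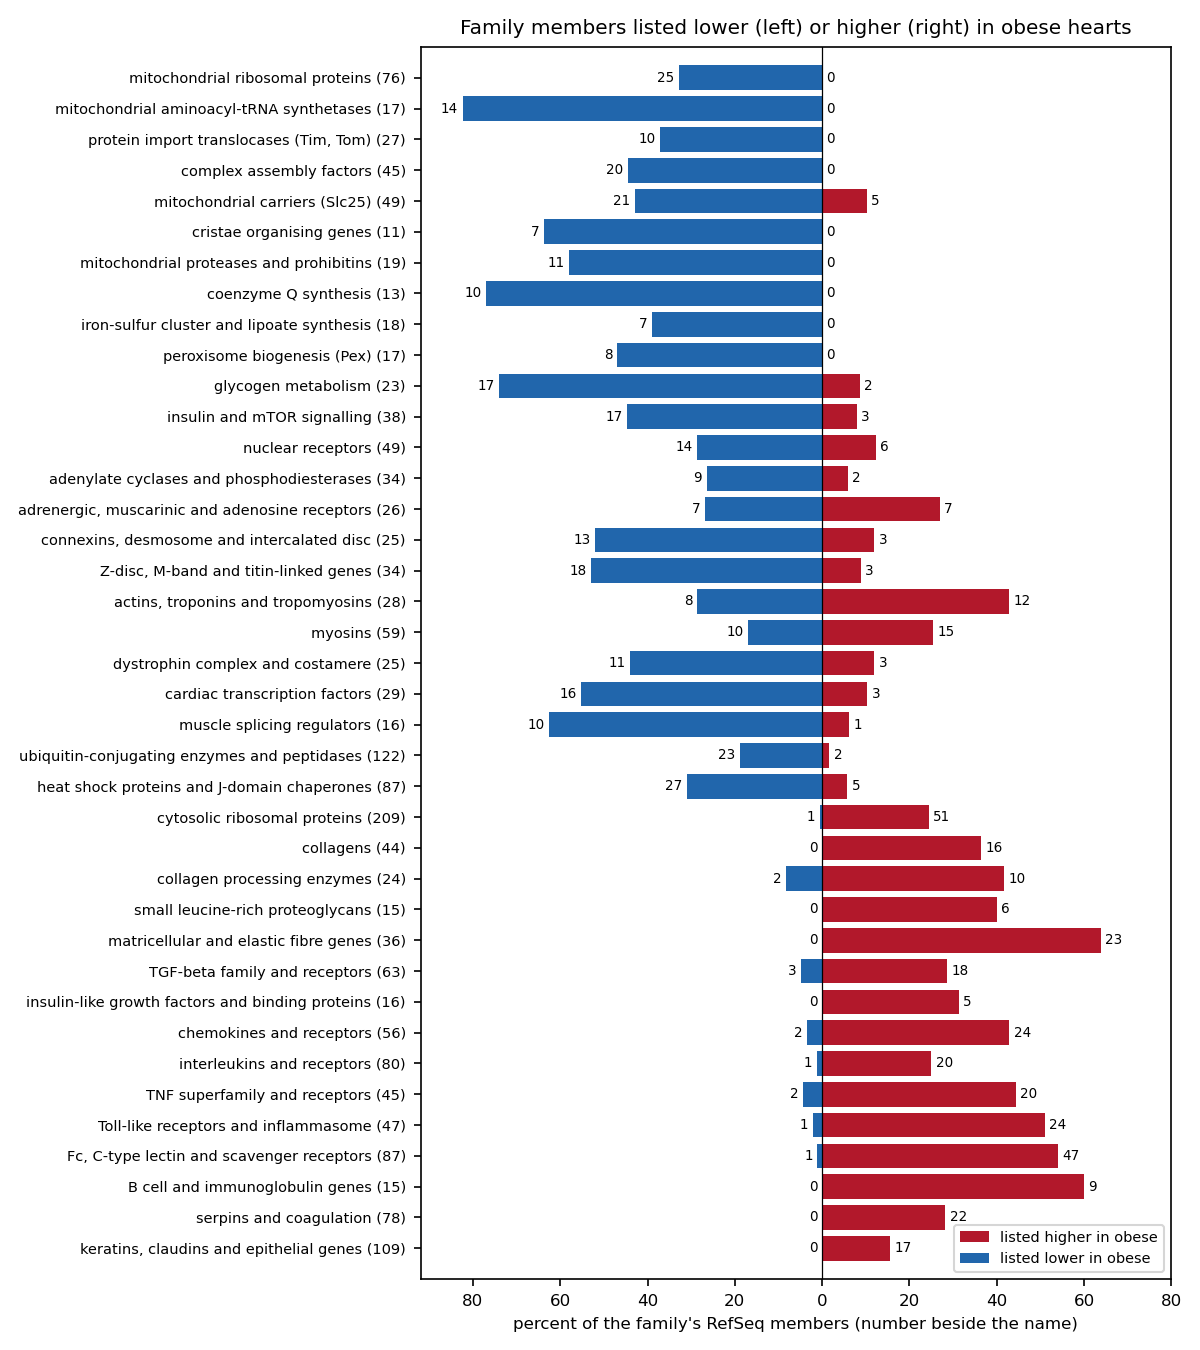
Percent of each family's RefSeq members (number beside the family's name) that were listed as lower (blue, to the left) or higher (red, to the right) in obese hearts, with the number of listed genes at the end of each bar. Of the families drawn, those of mitochondrial upkeep extend to the left only or nearly so, with 5 higher Slc25 carriers, collagens and immune families mostly to the right, and receptor and contractile families to both sides.

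The machinery that builds mitochondria from nuclear genes was lower in nearly all of its listed members in the authors' deposited table. Of 17 mitochondrial aminoacyl-tRNA synthetases, which charge the organelle's tRNAs, 14 were listed and all were lower, from Lars2 at 0.129 (adjusted p 7.91e-68) to Hars2 at 0.483. Aars2, Iars2 and Cars2 stood at 0.293, 0.301 and 0.316. Of 22 synthetases of the cytosol, in contrast, only Farsb (0.374) and Iars1 (0.463) were listed. Mitochondrial ribosomal proteins showed the same direction, with 25 of 76 listed and all lower, from Mrpl3 at 0.172 (adjusted p 3.03e-114) to Mrpl44 at 0.497. Among genes of mitochondrial DNA upkeep and RNA processing, 10 were lower and 1 higher. Lrpprc, which stabilises mitochondrial mRNA, stood at 0.189, the DNA polymerase Polg at 0.39 and the tRNA-processing enzyme Elac2 at 0.432, while the topoisomerase Top1mt was higher at 2.04.

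Transcripts of the mitochondrial genome itself were higher in the authors' deposited table. All 12 of its listed protein-coding genes rose, from Mt-nd4 at 2.64 to Mt-atp6 at 4.35, with adjusted p-values of 1.24e-24 and 2.28e-91. A further 9 genes that carry the clone name of the mitochondrial genome were also higher, with folds of 2.14 to 5.10.

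Genes of import, folding and assembly were lower too in the authors' deposited table. All 10 listed translocase subunits of the inner and outer membrane, of 27, were lower, with Timm23, the channel of the inner membrane, at 0.152, Tomm70, a receptor of the outer membrane, at 0.16 and Tomm40, its pore, at 0.259. Hspa9, the matrix chaperone that pulls proteins in, stood at 0.054 with an adjusted p deposited as 0, its exchange factor Grpel1 at 0.168 and Hspd1, the matrix chaperonin, at 0.224. Hscb, a co-chaperone of iron-sulfur cluster transfer, was the 1 listed mitochondrial chaperone that was higher, at 2.48. Of 45 assembly factors of the respiratory complexes, 20 were listed and all were lower. Cox10, which makes the haem of cytochrome oxidase, stood at 0.136 (adjusted p 1.46e-95), the complex I factor Ndufaf1 at 0.154, the complex III factor Uqcc1 at 0.195 and the ATP synthase factor Atpaf1 at 0.259. All 11 listed proteases and prohibitins, of 19, were lower, with Clpx at 0.227, Spg7 at 0.262 and Afg3l2 at 0.27 among those with the smallest adjusted p.

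Cofactor synthesis and inner membrane shape moved likewise in the authors' deposited table. Of 13 genes of coenzyme Q synthesis, 10 were listed and all were lower, from Coq9 at 0.13 to Pdss2 at 0.429, with Coq8a at 0.183 and Coq2 at 0.216. All 7 listed genes of iron-sulfur cluster and lipoate synthesis, of 18, were lower. Lias and Lipt1, which make and transfer lipoate, stood at 0.259 and 0.245. All 7 listed cristae genes, of 11, were lower, with Immt, the core of the contact site complex, at 0.16. Peroxisome biogenesis showed 8 of 17 listed and all lower, with the membrane protein chaperone Pex19 at 0.168.

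The Slc25 carriers, which move metabolites across the inner membrane, were the mitochondrial family with most members in the opposite direction, 21 lower and 5 higher of 49. Slc25a13 and Slc25a12, the aspartate and glutamate carriers of the malate-aspartate shuttle, stood at 0.04 and 0.138, and Slc25a11, the oxoglutarate carrier of the same shuttle, at 0.139. The paralogous ATP-magnesium and phosphate carriers Slc25a23 and Slc25a24 went apart, with folds of 0.091 and 3.6. Slc25a1, the citrate carrier that feeds cytosolic acetyl-CoA, was higher at 2.73, as were Slc25a17 of the peroxisome at 2.28 and Slc25a27 at 3.18.

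Promoters of the lower mitochondrial genes were searched for the letters GCGCATGCG, a recognition sequence of nuclear respiratory factor 1 (NRF1), which is known to act at genes of mitochondrial proteins. The window ran from 250 bases before to 50 bases after the RefSeq start (assembly GRCr8, 1 promoter per gene), and the letters were searched on both strands. They were found in 7 of 116 promoters of lower members of the mitochondrial families (6.03%). The share was 61 of 2072 (2.94%) for all lower genes, 37 of 2220 (1.67%) for all higher genes and 386 of 19005 (2.03%) for all protein-coding genes. The 3 holders with the smallest adjusted p are shown by the 250 bases before their start, 5′ to 3′ on the gene's strand, with the matched letters in capitals. A match describes the letters only, and NRF1 binding was not measured. Ndufaf4 (chr5:43401545-43401794, + strand), an assembly factor of complex I, had a fold of 0.312. Grpel1 (chr14:78522869-78523118, − strand) had a fold of 0.168. Cox18 (chr14:18149746-18149995, + strand), which inserts a cytochrome oxidase subunit into the membrane, had a fold of 0.438.
Ndufaf4: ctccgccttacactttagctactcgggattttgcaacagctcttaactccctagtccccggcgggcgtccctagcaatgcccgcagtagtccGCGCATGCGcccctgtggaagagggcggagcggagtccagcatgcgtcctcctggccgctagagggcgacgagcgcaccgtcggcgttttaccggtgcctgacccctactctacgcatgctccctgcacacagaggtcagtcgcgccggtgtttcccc
Grpel1: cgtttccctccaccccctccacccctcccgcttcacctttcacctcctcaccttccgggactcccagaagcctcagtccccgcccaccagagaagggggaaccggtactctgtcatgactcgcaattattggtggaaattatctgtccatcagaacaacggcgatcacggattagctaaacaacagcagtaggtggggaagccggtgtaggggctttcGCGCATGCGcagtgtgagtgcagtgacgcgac
Cox18: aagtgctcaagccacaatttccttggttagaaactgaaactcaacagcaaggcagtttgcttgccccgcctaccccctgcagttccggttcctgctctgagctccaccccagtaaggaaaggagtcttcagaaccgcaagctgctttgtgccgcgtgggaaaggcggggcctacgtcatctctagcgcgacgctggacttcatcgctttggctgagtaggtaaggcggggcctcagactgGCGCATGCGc

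Cytosolic ribosomal protein genes stood on the other side of the authors' deposited table. Of these genes and their copies, 51 were higher and 1 was lower, with a median fold of 2.59. The list has 209 symbols, of which 23.0% were in the table, beside 23.1% of all protein-coding genes. Rpl39, listed on 2 identifiers, had the highest fold, 7.46 (adjusted p 2.25e-13), and 2.35 on the other identifier. Rps19 and Rpl28 stood at 3.78 and 2.87. The 1 lower gene was Rpl3l, the ribosomal protein specific to heart and skeletal muscle, at 0.261. Ribosomal protein genes have near-identical copies in the genome, so the split of reads among them is uncertain. Translation factors were mixed, 4 higher and 8 lower of 82 (14.6% listed). The poly(A)-binding protein Pabpc1 at 4.06 and the elongation factor Eef1a1 at 3.34 were higher. The scaffold Eif4g1 at 0.198 and the repressor Eif4ebp2 at 0.274 were lower.

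Among nuclear receptors, ligand-regulated transcription factors, 14 of 49 were lower and 6 were higher in the authors' deposited table. All 3 estrogen-related receptors, which drive genes of oxidative metabolism, were lower: Esrrb at 0.041, Esrrg at 0.129 and Esrra at 0.158 (adjusted p 2.77e-150 for Esrrg). The peroxisome proliferator-activated receptors went apart, with Ppara, the regulator of fatty acid oxidation, at 0.115 and Pparg, known from adipocytes, endothelium and macrophages, at 2.71. The thyroid hormone receptor Thrb was lower at 0.252. Nr2f2, a receptor of venous and atrial identity, had the highest fold of the family, 4.23, and Rara, Rarg and Nr1h3 stood at 2.5, 2.22 and 2.04. Of their coregulators, Ppargc1a, which coactivates the estrogen-related receptors, stood at 0.135, its muscle partner Perm1 at 0.105 and Lpin1 at 0.063, while Ncoa7 was higher at 2.36. The letters TGACCTTG, bound by estrogen-related receptors, were found on either strand in 27 of 2072 promoters of lower genes, in 2 of the 116 of lower mitochondrial families and in 232 of all 19005. They were also found in 28 of 2220 promoters of higher genes and in 7 of 280 of higher matrix and immune families.

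Listed genes of energy and insulin signalling kinases were mostly lower in the authors' deposited table. The AMP-activated protein kinase list had 4 members listed of 13, all lower: Prkaa2 at 0.036, the beta subunits Prkab2 and Prkab1 at 0.228 and 0.441 and Stradb, a partner of the upstream kinase, at 0.247. Insulin and mTOR signalling had 17 members lower and 3 higher of 38. The insulin receptor Insr stood at 0.152 (adjusted p 1.87e-154), the kinase Akt2 at 0.186 and the mTOR restraint Tsc1 at 0.235. The higher members were Grb10 (2.81), which restrains insulin receptor signalling, and Pik3cd (2.77) and Pik3cg (2.62), the phosphoinositide 3-kinases typical of leukocytes. Beside these last genes stand the leukocyte markers given above. Adipokine and metabolic hormone receptors were 6 higher and 3 lower of 22, with the incretin receptor Gipr at 4.99 against the growth hormone receptor Ghr at 0.216 and the adiponectin receptor Adipor2 at 0.261.

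Glycogen genes were listed almost throughout, 17 lower and 2 higher of 23 in the authors' deposited table. The brain and muscle forms of glycogen phosphorylase, Pygb and Pygm, stood at 0.066 and 0.11, and the liver form Pygl at 2.91. The phosphorylase kinase subunits Phkb and Phka1 stood at 0.111 and 0.247, and Nhlrc1, a ubiquitin ligase that guards glycogen quality, at 0.127. Pgm2, a sugar-phosphate mutase, was higher at 3.36. In the pentose phosphate pathway, Tkt, the transketolase, was higher at 3.86 (adjusted p 8.96e-135), while Pgd was lower at 0.438. Genes of NAD synthesis and use were 11 lower and 5 higher of 32. Acmsd, which diverts tryptophan breakdown away from NAD, stood at 0.032, Nampt, the rate-limiting enzyme of NAD salvage, at 0.241 and the mitochondrial transhydrogenase Nnt at 0.097. Qprt, which makes NAD precursors from tryptophan, stood at 7.26, and the NAD consumers Bst1 and Cd38 at 3.51 and 2.27.

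Genes of lipid handling went both ways in the authors' deposited table. Of 14 genes of fatty acid uptake, 5 were lower and 4 were higher. The muscle fatty acid binding protein Fabp3 stood at 0.283, the lipoprotein lipase gene Lpl at 0.268, the lipoprotein receptor Vldlr at 0.184 and the transporter Slc27a1 at 0.376. Fabp4, the binding protein of adipocytes, endothelium and macrophages, was higher at 4.96 (adjusted p 1.8e-42). The endothelial regulators of fatty acid transport Meox2 and Tcf15 stood at 3.39 and 3.94, and the transporter Slc27a6 at 5.82. Acyl-CoA synthetases and thioesterases were 13 lower and 3 higher of 36, with Acsl1 and Acsl6 at 0.171 and 0.145 against Acsl5 at 3.18. Among desaturases and elongases, 3 were lower and 3 higher, with Scd at 4.63 and Elovl1 at 2.51 against Elovl7 at 0.395. In cholesterol metabolism, Fdft1 (0.259), Lss (0.316), Insig1 (0.304) and Insig2 (0.207) were lower and Ebp (2.91) and Dhcr7 (2.23) were higher. Apoe, a carrier of lipids made by macrophages among others, stood at 6.41, and the phospholipid transfer protein Pltp at 3.71.

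In the authors' deposited table, receptors for catecholamines, acetylcholine and adenosine, with their kinases and arrestins, were 7 lower and 7 higher of 26. The higher share was 22.2% past a fold of 3 or 1/3 and 12.5% past 4 or 1/4. Adrb1, the main beta receptor of cardiomyocytes, stood at 0.055 (adjusted p 1.55e-66). The alpha1A receptor Adra1a stood at 0.06 and the alpha2B receptor Adra2b at 4.23. The adenosine A1 receptor Adora1 stood at 0.075, and its relative Adora2a at 2.53. Chrm2, the muscarinic receptor that slows the heart, stood at 0.108. Downstream, 9 cyclases and phosphodiesterases were lower and 2 were higher of 34, and 13 were lower and 9 higher when members were found by words of the description. The cyclases Adcy1 and Adcy5 stood at 0.02 and 0.107 and Adcy4 at 3.41, while the phosphodiesterases Pde3a and Pde4d stood at 0.102 and 0.162 and Pde9a, which degrades cGMP, at 4.38. Protein kinase A inhibitors went apart, with Pkia at 0.036 and Pkib at 2.3, and so did its type II regulatory subunits, with Prkar2a at 0.156 and Prkar2b at 2.3. In protein kinase C, Prkce and Prkca stood at 0.157 and 0.241, and Prkcb and Prkch at 2.22 and 2.11.

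**Figure D5:**
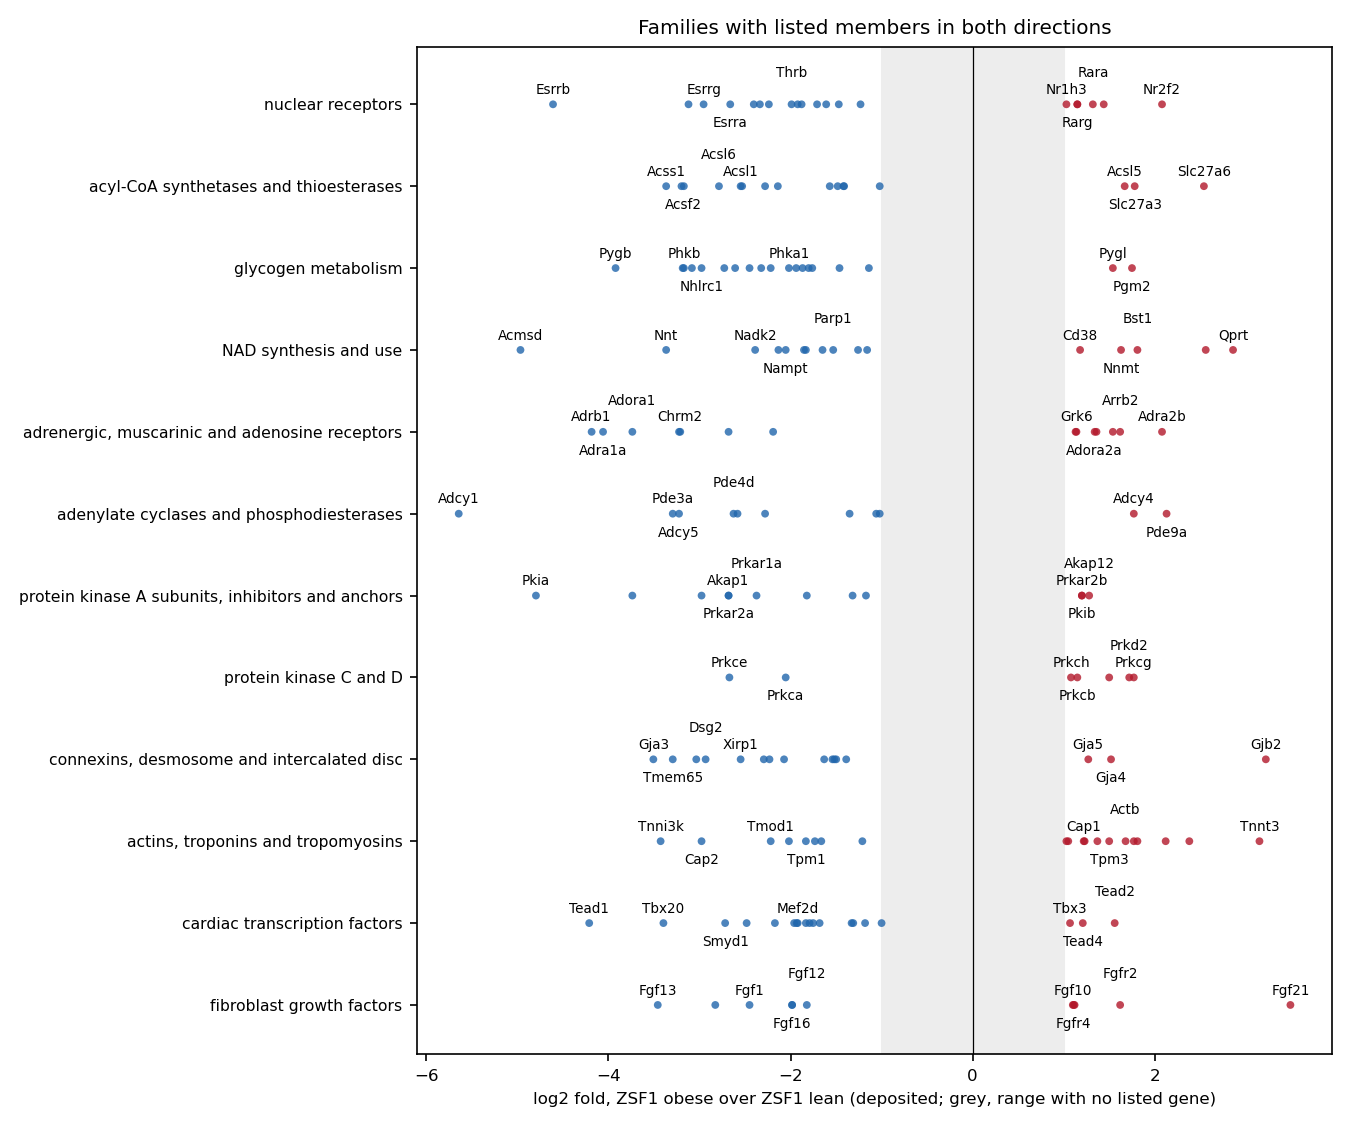
Deposited fold of obese over lean (log2 scale, x axis) for the listed members of 12 families (rows) that had members in both directions; each point is 1 gene, red if higher and blue if lower in obese hearts, names are given for most genes with the highest, the lowest fold and the smallest adjusted p in each direction, and no listed gene can lie in the grey band. Subtypes of a receptor or kinase stand on opposite sides, for example Adra1a at 0.06 and Adra2b at 4.23.

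Ion channel families went both ways in the authors' deposited table. Sodium and calcium channel genes were 11 lower and 3 higher of 41. The sodium channel beta subunit Scn4b stood at 0.051 and the calcium channel subunit Cacnb2 at 0.179. Scn2a, known from neurons, was higher at 4.03 and Cacnb3 at 3.53. Potassium channels were 15 lower and 11 higher of 95, and 18 each way when found by words of the description, with Kcnj3, a subunit of the acetylcholine-gated channel, at 0.04, Kcnj12 of the inward rectifier at 0.117 and Kcnq1 of the slow delayed rectifier at 0.193. The calcium-activated channel Kcnn4, known from leukocytes and other cells that are not excitable, stood at 6.19 and its large-conductance relative's subunit Kcnmb4 at 5.28. Pacemaker, TRP and chloride channels were 9 higher and 7 lower of 53 (44.4% higher past a fold of 3 or 1/3). The pacemaker channel Hcn2 stood at 0.033 and Ano5 at 0.047, while the mechanosensitive channel Piezo1 was higher at 2.77. Of pumps and exchangers, 18 were lower and 13 higher of 52, with the sodium-calcium exchanger Slc8a1 at 0.101. Fxyd5, a regulator of the sodium pump, was higher at 5.94. Sarcoplasmic reticulum and triad genes were 10 lower and 3 higher of 26. Jph2, which ties the T-tubule to the sarcoplasmic reticulum, stood at 0.043 with an adjusted p deposited as 0. Trdn, a partner of the calcium release channel, was among the higher ones at 2.83.

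Contractile genes did not move as one. In the authors' deposited table, actins, troponins and tropomyosins were 12 higher and 8 lower of 28, and 46.2% higher among members past a fold of 3 or 1/3. The cardiac members Actc1 (0.247), Tnnc1 (0.301) and Tpm1 (0.281) were lower, as were the kinase Tnni3k (0.093) and the pointed-end cap Tmod1 (0.215). The fast skeletal troponin Tnnt3 had the highest fold, 8.88 (adjusted p 6.5e-45), followed by its fast partner Tnni2 at 5.21. The non-muscle or slow members Actb and Tpm3 stood at 3.2 and 2.83. Myosins were 15 higher and 10 lower of 59 (44.4% higher past a fold of 4 or 1/4), with the skeletal light chain Myl1 at 8.0, the atrial light chain Myl4 at 6.82 and the leukocyte myosin Myo1g at 3.63 on one side. On the other side were the cardiac light chain kinase Mylk3 at 0.188, the adult alpha heavy chain Myh6 at 0.187 and Myo18b at 0.283. Genes of the Z-disc, the M-band and titin were 18 lower and 3 higher of 34, with Pdlim5 at 0.076, Synpo2l at 0.117 and Myoz3 at 0.14 against the non-muscle actinin Actn1 at 4.08 and Myoz1, of fast fibres, at 3.29.

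Genes that join cardiomyocytes to one another and to the matrix were mainly lower in the authors' deposited table. Of 25 genes of the intercalated disc, 13 were lower and 3 higher. The desmosomal cadherin Dsg2 stood at 0.131, the disc proteins Tmem65 and Xirp1 at 0.102 and 0.171 and the connexin Gja3 at 0.088. The vascular connexins Gja4 and Gja5 were higher at 2.87 and 2.41, as was Gjb2, an epithelial connexin, at 9.32. In the dystrophin complex and costamere, 11 were lower and 3 higher of 25, with Dtna at 0.066, Sntb1 at 0.116 and the sarcoglycan Sgcd at 0.123. The paralogues went the other way for the dystrobrevin Dtnb at 2.55, the sarcoglycan Sgce at 2.58 and the syntrophin Sntg2 at 11.9. Cardiac transcription factors were 16 lower and 3 higher of 29. Tead1, the Hippo pathway factor of heart muscle, stood at 0.054 (adjusted p 9.15e-265), and its relatives Tead2 and Tead4 at 2.95 and 2.31. Tbx20, needed for adult heart function, stood at 0.095 and the methyltransferase Smyd1, which supports sarcomeres, at 0.152. Of 16 muscle splicing regulators, 10 were lower, with Rbm20, the titin splicing factor, at 0.238, Qk at 0.261 and Rbfox2 at 0.392, and the repressor Ptbp1 was higher at 2.07.

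Listed chaperone, ubiquitin, proteasome and autophagy genes were mostly lower in the authors' deposited table. Heat shock proteins and J-domain chaperones were 27 lower and 5 higher of 87, with Dnaja4 at 0.088 and Dnajc16 at 0.129. Hspa12b, the member known from endothelium, was the highest at 2.53. Ubiquitin-conjugating enzymes and peptidases were 23 lower and 2 higher of 122 (20.5% listed, beside 23.1% of all protein-coding genes). The exception with the highest fold was Ube2c, which acts in mitosis, at 6.28. The large ubiquitin ligase families were 70 lower and 22 higher of 278. Fbxo40, a muscle ligase that targets an insulin receptor substrate, stood at 0.04 (adjusted p 8.48e-188), the atrophy ligase Fbxo32 at 0.125 and Klhl21 at 0.099. Of proteasome subunits, 8 were lower and 2 higher of 54 (18.5% listed). The higher ones were Psmb9 (2.85), a subunit of the immunoproteasome, and the activator Psme3 (2.68). Autophagy genes were 12 lower and 3 higher of 46. The mitophagy receptors Bnip3 and Bcl2l13 stood at 0.158 and 0.165 and Bnip3l at 2.14. Genes of endoplasmic reticulum stress and folding were 5 higher and 5 lower of 38, and all members past a fold of 3 or 1/3 were higher. Lysosomal genes were 12 higher and 8 lower of 76 (42.9% higher past a fold of 3 or 1/3), with Ctsz at 4.38 and Laptm5, of leukocyte lysosomes, at 3.89 against the proton pump subunits Atp6v1g2 and Atp6v0e2 at 0.118 and 0.252.

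Collagens, matricellular genes and small proteoglycans were higher in every listed member. All 16 listed collagens of 44 rose, with folds from 2.01 for Col15a1 to 14.1 for Col6a4 and a median of 3.04. Those with the smallest adjusted p included Col27a1 (3.12), Col16a1 (2.16) and Col7a1 (3.39), the anchoring fibril collagen. In the authors' deposited table, all 23 listed matricellular and elastic fibre genes of 36 were higher, with a median fold of 4.38. Cthrc1, a secreted protein of activated fibroblasts, stood at 21.9 (adjusted p 1.1e-24), the collagen-binding Sparc at 4.72 and the elastic fibre organiser Efemp2 at 2.83. All 6 listed small leucine-rich proteoglycans were higher, from Prelp at 2.58 to Bgn at 5.82. Collagen processing enzymes were 10 higher and 2 lower of 24, with the crosslinking enzyme Lox at 5.17 against Loxl4 at 0.363. Of the metalloproteinases and their inhibitors, 9 were higher and 2 lower, with Timp1 at 8.34 and the neutrophil collagenase Mmp8 at 20.3 against Mmp11 at 0.39 and the membrane-bound Mmp17 at 0.409. Other families of the matrix and of adhesion went both ways. ADAM and ADAMTS enzymes were 9 higher and 6 lower of 53, and laminins and basement membrane genes 4 higher and 3 lower of 16. Integrins were 8 higher and 5 lower of 30 (42.9% higher past a fold of 3 or 1/3), and semaphorins, plexins and ephrins 14 higher and 8 lower of 53 (44.4% past that fold). Cadherins were 12 higher and 11 lower of 80, and 46.4% were higher when found by words of the description. The fibroblast markers had a median fold of 3.69. They include matrix genes such as Col1a1, Col3a1 and Lum, so they are not a separate readout.

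Growth factor families differed from one another. Insulin-like growth factors and their binding proteins had 5 of 16 listed and all were higher, with Igf2 at 6.15, Igf1 at 4.26 and Igfbp4 at 3.2. The transforming growth factor beta family was 18 higher and 3 lower of 63 in the authors' deposited table. Tgfb1 stood at 4.2 (adjusted p 1.57e-129), Ltbp2, named as a latent TGF-beta binding protein, at 8.06 and the endothelial coreceptor Eng at 4.11. The receptor Bmpr1a was lower at 0.15 and Smad3, which carries the signal to the nucleus, at 0.457. Vascular and platelet growth factors were 15 higher and 2 lower of 32, none of the higher ones past a fold of 4, and the lower ones were the ligands Angpt1 (0.16) and Vegfb (0.225). The receptors Tek and Flt4 stood at 2.44 and 3.18. Fibroblast growth factors were 5 higher and 6 lower of 28, with the hormone-like Fgf21 at 11.2 against Fgf1 at 0.183, Fgf16, known from heart muscle, at 0.253 and the channel regulators Fgf12 and Fgf13 at 0.283 and 0.091. In the Wnt pathway, 13 were higher and 9 lower of 54 (33.3% higher past a fold of 4 or 1/4), with the antagonist Sfrp2 at 9.71 and Fzd6 at 2.53 against the receptor Fzd5 at 0.096 and the ligand Wnt9a at 0.131.

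Immune families were higher with few exceptions in the authors' deposited table. Fc, C-type lectin and scavenger receptors were 47 higher and 1 lower of 87, with the inhibitory receptor Lilrb4 at 18.1 (adjusted p 2.44e-24) and the signalling chain Fcer1g at 6.15. The 1 lower gene, Clec16a at 0.233, matches by its name and is known for a role in mitophagy. Chemokines and their receptors were 24 higher and 2 lower of 56, with Ccl9 at 8.11, Cxcl16 at 3.84 and Cxcr4 at 3.48 against Cxcl11 at 0.154 and Ccr10 at 0.255. Interleukins and receptors were 20 higher and 1 lower of 80 (26.2% listed, beside 23.1% of all protein-coding genes). Il1b stood at 6.36, its natural antagonist Il1rn at 9.13 and the alarmin Il33 at 4.11, and the shared receptor chain Il6st was the lower one at 0.334. The tumour necrosis factor superfamily was 20 higher and 2 lower of 45, with Tnfrsf4, a costimulatory receptor of T cells, at 13.1 against Tnfrsf19 at 0.193. Toll-like receptor and inflammasome genes were 24 higher and 1 lower of 47, with the protease Casp1 at 3.25 and the adaptor Tirap at 0.323. Of the NF-kappaB genes, the inhibitor Nfkbia stood at 5.54 and Bcl3 at 3.94, while Ikbkg, the kinase scaffold, stood at 0.233. B cell genes were 9 higher of 15, with Pax5 at 5.39 and Cd79b at 3.43, and T and natural killer cell genes 18 higher and 1 lower of 30, with Ctla4 at 5.54 and Cd8a at 4.86 against Cd28 at 0.245. The leukocyte markers had median folds of 3.51 for macrophages, 10.3 for neutrophils and 4.11 for B cells. They share genes with these families, such as Pax5, Cd79b and Cd8a, so they are not a separate readout.

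Genes of clotting, of epithelia and of cell motility were also on the higher side. All 22 listed serpins and coagulation genes of 78 rose in the authors' deposited table (28.2% listed, beside 23.1% of all protein-coding genes). Serpinb8 stood at 17.6, the thrombin receptor F2r at 3.73 and the protein C receptor Procr at 5.7. F11r, an adhesion molecule that matches this family by its symbol alone, stood at 3.78. Of 109 keratins, claudins and epithelial genes, 15.6% were listed, beside 23.1% of all protein-coding genes. All 17 listed members rose, with Krt79 at 13.3, Krt1 at 7.21 and Cldn15 at 5.54. The mesothelial and epithelial markers Wt1 (3.46), Krt8 (3.89) and Epcam (3.94) were also higher. Among galectins, S100 proteins and annexins, 17 were higher and 1 lower of 37, with S100a9, the neutrophil alarmin, at 22.8, S100a10 at 6.06 and its partner Anxa2 at 3.6. Actin regulators were 21 higher and 6 lower of 62. Marcks stood at 9.0 (adjusted p 1.75e-116), the mesenchymal filament Vim at 6.11 and the capping protein Capg at 3.78, while the profilin Pfn2 and the muscle cofilin Cfl2 stood at 0.146 and 0.27.

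The letters TGACTCA, bound by AP-1 factors, were searched on both strands of the same promoter window. They were found in 25 of 280 promoters of higher members of the matrix and immune families (8.93%) and in 1 of 116 promoters of lower members of the mitochondrial families. The share was 109 of 2220 (4.91%) for all higher genes, 70 of 2072 (3.38%) for all lower genes and 784 of 19005 (4.13%) for all protein-coding genes. Further searches on both strands gave 10.0% of the matrix and immune promoters for GGGNNTTCC, a form of the NF-kappaB site, against 9.48% of the mitochondrial and 6.18% of all promoters. For CATTCC, bound by TEAD factors, the shares were 17.5% of the matrix and immune, 9.48% of the mitochondrial and 12.5% of all promoters. For CCAAT, bound by NF-Y, the shares were 29.3% of the matrix and immune, 48.3% of the mitochondrial and 38.4% of all promoters. Among all higher and all lower genes, the shares were 7.84% and 6.76% for GGGNNTTCC. They were 12.0% and 10.5% for CATTCC, and 34.3% and 39.0% for CCAAT. Holders of the AP-1 letters are shown by the 250 bases before the start of F2r (chr2:28620580-28620829, − strand) and Anxa2 (chr8:78986002-78986251, + strand) in assembly GRCr8, with the matched letters in capitals.
F2r: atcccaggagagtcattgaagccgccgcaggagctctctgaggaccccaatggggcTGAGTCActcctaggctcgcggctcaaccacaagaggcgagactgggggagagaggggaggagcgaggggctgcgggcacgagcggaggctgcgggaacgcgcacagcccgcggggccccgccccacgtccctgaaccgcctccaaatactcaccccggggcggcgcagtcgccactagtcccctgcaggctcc
Anxa2: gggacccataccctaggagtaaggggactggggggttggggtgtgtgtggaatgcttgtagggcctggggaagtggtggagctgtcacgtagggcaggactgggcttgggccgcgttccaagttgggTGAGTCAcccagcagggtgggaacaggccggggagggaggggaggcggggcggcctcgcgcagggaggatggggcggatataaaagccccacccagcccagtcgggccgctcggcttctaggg
Of a list of AP-1 and immediate early genes, 9 of 41 (22.0%) were listed, beside 23.1% of all protein-coding genes. All 9 were higher, with Batf3 at 6.92, Cebpd at 2.75 and Maff at 2.28.

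Redox genes went both ways in the authors' deposited table. Of glutathione, thioredoxin and peroxiredoxin enzymes, 15 were lower and 10 higher of 76. The mitochondrial peroxiredoxin Prdx3 stood at 0.125 and the methionine sulfoxide reductases Msrb3 and Msra at 0.154 and 0.295. The secreted Gpx3 stood at 2.44, Gpx7 of the endoplasmic reticulum at 4.47 and Gstp1 of the cytosol at 2.81. Genes of NADPH oxidases and haem oxygenase were 9 higher and 3 lower of 22. The superoxide-producing oxidase Nox4 stood at 3.56 and the oxidase subunit Cyba at 5.7. The lower members were another oxidase subunit, Ncf1, at 0.49, and Nqo2 and Nqo1 at 0.132 and 0.497. Aldehyde and alcohol dehydrogenases were 11 higher and 8 lower of 50 (40.0% higher past a fold of 3 or 1/3), with Aldh3a1 of the cytosol at 5.13 against Aldh6a1 and Aldh4a1 of mitochondria at 0.078 and 0.1. Cytochrome P450 genes were 12 higher and 3 lower of 85 (17.6% listed, beside 23.1% of all protein-coding genes). The highest fold was 13.1 for Cyp1a1, an aryl hydrocarbon receptor target. Of clock genes, 4 were higher and 4 lower of 21. The clock-controlled Ciart, Dbp, Per3 and Per2 stood at 6.59, 4.76, 3.94 and 3.53, and Arntl, the core activator, at 0.218 and Nfil3, a repressor of Dbp target genes, at 0.454. The sources used here give no hour at which the hearts were taken.

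The authors' deposited table also lists 14 microRNA genes, 11 higher and 3 lower. Mir675 stood at 16.4 (adjusted p 3.02e-18), Mir142, known from blood cells, at 10.8, and Mir27b and Mir23b, which lie in 1 cluster, at 7.89 and 4.92. The muscle gene Mir133a-2 stood at 5.03, Mirlet7b and Mirlet7d at 3.89 and 2.58 and Mir22, known from heart muscle, at 0.152 (adjusted p 1.1e-13). Libraries of polyadenylated RNA hold precursors and host transcripts, so these folds are not levels of the mature microRNAs. Mature sequences were found for 10 of the 14 genes in the RefSeq table (assembly GRCr8). The arms shown belong to the genes at both ends of the range and to the pair with a shared seed, with bases 2 to 8, the seed that pairs with targets, in capitals.
miR-675-5p: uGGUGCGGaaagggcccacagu
miR-142-3p: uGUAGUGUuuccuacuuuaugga
miR-27b-3p: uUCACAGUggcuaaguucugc
miR-23b-3p: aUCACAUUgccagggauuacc
let-7b-5p: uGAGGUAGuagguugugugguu
let-7d-5p: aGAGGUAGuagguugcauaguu
miR-22-3p: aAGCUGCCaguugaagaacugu
The let-7b and let-7d arms share the seed GAGGUAG, and the others shown each have a seed of their own.

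Short RNAs that usually lack a poly(A) tail were mostly on the higher side of the authors' deposited table. Of 31 listed small nucleolar, Cajal body and other short noncoding RNAs, 29 were higher, with a median fold of 3.46. SNORA73 and Snord123 stood at 22.5 and 18.9, and Snora5c was lower at 0.228. Rpph1, the RNA of ribonuclease P, stood at 10.1 and was chosen for mention after its value was seen. Histone genes, whose main transcripts also end without poly(A), were 8 higher and 1 lower of 77. The listed share was 11.7%, beside 23.1% of all protein-coding genes. With the short noncoding, mitochondrial genome and cytosolic ribosomal genes left out, 2944 genes were higher and 2652 lower, so the balance of the table was 52.6% higher in place of 53.4%. The part that RNA quality or library selection plays in these folds was not tested.

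The deposited tables of the other comparisons give these genes side by side values, although both obese comparisons share the obese libraries. Against WKY, the obese level was 0.049 for Adrb1, 0.029 for Prkaa2, 0.052 for Tead1, 6.5 for Tnnt3, 12.9 for Hapln1 and 7.16 for Lilrb4. Gjb2, Scd and Ciart are listed for obese against lean hearts and not for obese against WKY. Cyp1a1 is listed at 13.1 for obese against lean and at 0.37 for lean against WKY, and not for obese against WKY. The table of lean against WKY holds 233 genes with adjusted p-values up to 0.000347, a stricter limit than the 0.0498 reached for obese against lean. For the 79 genes in all 3 tables, the product of the folds of obese over lean and lean over WKY lay within 1.2 times of the deposited obese over WKY fold for 30 genes and was off by more than 2 times for 13. Oscar stood at 21.9, 0.33 and 2.04 in obese over lean, lean over WKY and obese over WKY, and Plppr4 at 0.287, 17.5 and 29.7. Folds were therefore not chained across the tables.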

How the data were processed

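Left ventricles of 18 male rats (6 WKY, 6 ZSF1 lean, 6 ZSF1 obese) were sequenced as polyadenylated RNA, and the lean and obese groups are compared here. Rnor_6.0 was the genome build, per the submitters' processing notes, which name HISAT2 2.1.0, then HTSeq 0.11.2 and DESeq2 1.22.2 as tools and give no settings here. The 2 columns of values are, per the file headers, a linear fold (the ratio of obese to lean) and an FDR, the adjusted p-value that the authors deposited for each gene of a list of changed genes. Counts, depth and values per rat were not used here, so no test, left-out rat or batch could be computed, and batch and group cannot be told apart. That the rats are separate animals is given by the labels.

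Families, 110 in number, and 14 cell type marker lists were matched by symbol (Python 3.11.15, pandas 2.3.3), and the counting was checked on simulated data. Members and lists were chosen with earlier results of these data known. Of the listed genes, 5365 (94.1%) had a symbol in RefSeq (GRCr8). Symbols on more than 1 identifier (10) were counted per identifier. Named genes are, per family, the highest and lowest fold and up to 4 of the smallest adjusted p in each direction, plus the 20 extremes of the whole table and all listed markers. Predicted names were left out. Named after their values were seen were Fabp3, Ppara, Pparg, Pygm, Tnni2, Rpph1, Plppr4, the microRNA genes and the imprinted genes. Some family patterns take in symbols of other function. Promoters were searched over the 250 bases before and 50 after the first RefSeq start of each gene. Some genes that the rule covers are not reported here by name.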

Additional observations from a re-analysis of the deposited data

How the results depend on the processing

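The table's balance of directions depended on the fold limit. At folds of at least 3 or at most 1/3, 1534 genes were higher and 1450 lower (51.4% higher), and at folds of at least 4 or at most 1/4, 807 were higher and 902 lower, so that the share of higher genes fell to 47.2%. At an adjusted p under 0.001 the share was 50.9%, with 2641 higher and 2545 lower genes. The numbers are smaller because fewer genes pass a stricter limit. The other alternatives, an adjusted p under 0.01, 1 count per symbol and leaving out short noncoding, mitochondrial genome and cytosolic ribosomal genes (chosen after seeing the data), kept the share between 52.3% and 53.1%.

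For 83 families with at least 10 listed members, 434 shares were recomputed. The majority direction turned in 23. At the limits of 3 and 1/3, the share of higher members became 33.3% for MAP kinases and for SR and hnRNP splicing proteins, 46.2% for actins, troponins and tropomyosins, 40.0% for aldehyde and alcohol dehydrogenases, 42.9% for integrins and for lysosomal genes, 44.4% for pacemaker, TRP and chloride channels and for semaphorins, plexins and ephrins, and 36.4% for phospholipases. At the limits of 4 and 1/4 it became 0.0% for MAP kinases, SR and hnRNP splicing proteins and vascular and platelet growth factors, 33.3% for Wnt genes, cadherins, lysosomal genes and pacemaker, TRP and chloride channels, 42.9% for actins, troponins and tropomyosins and for aldehyde and alcohol dehydrogenases, 44.4% for myosins, 37.5% for phospholipases and 20.0% for semaphorins, plexins and ephrins. With members found by words of the description it became 46.4% for cadherins and 54.4% for zinc finger genes. The cause was not tested beyond the smaller number of genes past each limit. No majority turned at the stricter adjusted p limits or with 1 count per symbol. Promoters searched over the 250 bases before the start alone held each motif as often or less often, as a shorter window allows.

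No paired analysis was possible because the tables give no values per rat. Fits without single rats, other normalizations and filters on low counts were not run for the same reason. Depth is unknown.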

Other observations

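Genes of the cell cycle, patterning and vesicle traffic gave further values in the authors' deposited table. Cyclins, mitotic kinases and kinesins were 41 higher and 16 lower of 138, with Cenpi at 7.01 and the kinase Cdk2 at 2.69 against the replication factor Mcm10 at 0.134 and the transport kinesin Kif1c at 0.259. Homeobox, forkhead and Sox factors were 26 higher and 14 lower of 152. Prrx2, Sox9 and Foxc2, known from mesenchymal and vascular development, stood at 8.4, 6.19 and 4.76, and Foxo6 and Foxo3 at 0.071 and 0.281. Rab25, a Rab protein of epithelia, stood at 10.4, and Rab12 at 0.188. Regulators of G protein signalling were divided, with Rgs18 and Rgs10, known from blood cells, at 5.82 and 5.74 and Rgs6 and Rgs7 at 0.245 and 0.124. Among tubulins and microtubule genes, 11 were higher and 9 lower of 59, with Tubb3 at 4.23 and Tubb6 at 3.39 against Tuba3b at 0.233. Zinc finger genes of the Zfp type were 31 higher and 32 lower of 435 (14.5% listed, beside 23.1% of all protein-coding genes).

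A list of 25 imprinted genes had 13 members listed, 10 higher and 3 lower. It was drawn up after the values of these genes were seen. Its counts therefore cannot be weighed against the 23.1% of protein-coding genes listed or the 53.4% of listed genes higher. The growth factor Igf2 stood at 6.15, Ndn at 5.54, Mest at 4.35, Plagl1 at 2.97, Grb10 at 2.81, Slc22a18 at 2.77 and the cell cycle inhibitor Cdkn1c at 2.6. Mir675, which lies within the imprinted noncoding gene H19, stood at 16.4, and H19 was not listed. The lower members were Snrpn at 0.054 (adjusted p 1.42e-54), Zim1 at 0.051 and Kcnq1 at 0.193. Values per allele were not used here, and no test was made on this list.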
